A study of Mus musculus with 3 samples.

Results

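The 8 genes described here encode proteins of the red cell membrane and of the protein skeleton beneath it: Slc4a1, Ank1, Sptb, Epb41, Epb42, Rhd, Rhag and Kel. They were taken by name from the 32285 gene rows of a mouse bone marrow single-cell RNA series, and all 8 were found. Their levels were followed over erythroid cells ordered by hemoglobin content, and set against stromal and myeloid cells of the same libraries.

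A red cell survives the circulation because its lipid bilayer is fastened to a meshwork of spectrin. Band 3, the anion exchanger encoded by Slc4a1, spans the membrane and is tied to spectrin through ankyrin-1 (Ank1), with protein 4.2 (Epb42) at that contact. Beta-spectrin (Sptb) is a part of that meshwork, and protein 4.1 (Epb41) fixes spectrin to short actin filaments at the junctions of the mesh. The Rh protein (Rhd) and the Rh-associated glycoprotein (Rhag) form a membrane complex linked to band 3 and ankyrin, and Kel encodes the Kell metalloprotease, which is joined to the Xk protein. Erythroid precursors build this membrane while they fill with hemoglobin, and inherited loss of several of these proteins gives fragile, rounded red cells.

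The series held 3 libraries, 1 for each genotype, of marrow cells from C57BL/6 mice aged 6 to 8 weeks, prepared with the 10x Genomics 3′ v3 chemistry. They were WT, without either transgene named in the labels, R76W, a connexin 43 (Cx43) transgenic in which gap junctions of osteocytes are inhibited, and D130, the Δ130–136 transgenic, in which osteocyte hemichannels are blocked as well. These transgenes are described for osteocytes, not for blood cells. The cells were meant to be mesenchymal stromal cells, sorted after lysis of red cells and staining for CD31, CD45, Ter119, CD51 and PDGFRα; the number of mice behind a library is not given in the sources used here.

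Cells with at least 500 genes, at least 1000 unique molecular identifiers (UMIs, each standing for 1 captured transcript) and at most 10% mitochondrial UMIs were kept, which left 4371 WT, 1790 R76W and 2175 D130 cells. The libraries held 81837778, 29558251 and 46897983 UMIs in that order, and each pair of libraries shared 1 barcode among the kept cells. Cells with UMIs of at least 2 of Klf1, Gata1, Epor, Ermap and Car1 numbered 2465 (56.4%), 368 (20.6%) and 658 (30.3%) in the WT, R76W and D130 libraries, so a large part of libraries labelled as stromal was erythroid by these markers. Of these, 235, 18 and 50 cells also had at least 0.1% of UMIs from the stromal gene Cxcl12 or the myeloid gene Lyz2. These mixed cells were set apart, which left 2230 WT, 350 R76W and 608 D130 erythroid cells. Stromal cells (Cxcl12 at or above 0.1% of UMIs, Lyz2 below it) numbered 1479, 1190 and 1067. Myeloid cells (Lyz2 at or above 0.1%, Cxcl12 below it) numbered 82, 88 and 190. Cells of both classes could hold UMIs of at most 1 of the 5 erythroid genes.

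Erythroid cells were divided by the share of their UMIs from Hba-a1, Hba-a2, Hbb-bs and Hbb-bt into a low bin (under 1%), a middle bin (1 to 4%) and a high bin (at least 4%). The bins held 350, 838 and 1042 cells in WT, 127, 142 and 81 in R76W, and 188, 295 and 125 in D130. Markers that did not define the bins ordered them the same way. Kit, the stem cell factor receptor of early precursors, went from 40.3 to 2.63 to 0.509 UMIs per 1000000 UMIs (CPM) in WT, and the mitochondrial iron importer Slc25a37 went from 56.6 to 159.9 to 240.5 CPM. Both genes had the same order in R76W and D130. The median depth per cell went the other way, from 35827 to 28066.5 to 22224.5 UMIs in WT. The stromal markers were not evenly spread: the 6 markers together stood at 1771, 657 and 203 CPM over the WT bins, 883, 453 and 43.2 in R76W, and 1321, 110 and 67.5 in D130, mostly from Col1a1 except in the R76W high bin, where it gave 14.7 CPM, while Lepr stayed at or below 5.14 CPM in every bin. The myeloid markers together were highest at 562 CPM, in the WT middle bin, and the megakaryocyte markers at 142 CPM, in the WT low bin. Leaving out the erythroid cells rich in Col1a1, S100a8, S100a9 or Pf4 (29 WT, 4 R76W and 5 D130 cells) left every call on the 8 genes as it was.

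Promoter sequence was at hand in the RefSeq table (GRCm38.p6) for 6 of the 8 genes; Slc4a1 and Ank1 were not in it. Searched on both strands of the 250 bases before each start, a GATA motif (AGATAA, also with T as its first or G as its last letter, the core bound by GATA1) occurred in 5 of the 8 windows of these genes (Epb41 has 3 windows), against 26.5% of 32851 mouse promoters of that length. The letters CACCC, as in sites of KLF1, occurred in 4 of the 8 windows, against 52.0% of all promoters and no GATA and CACCC match shared a base in these windows. The share of all promoters that hold both motifs was not counted. As described below, Rhd moved with hemoglobin content far more than Rhag and Kel. The windows of the Rh pair and of Kel are shown, since these 3 hold both motifs. They run 5′ to 3′ on the strand of the gene with the motifs in capitals (a match on the other strand appears as its reverse complement), at chr4:134864286-134864535 (plus) for Rhd, chr17:40810899-40811148 (plus) for Rhag and chr6:41704326-41704575 (minus) for Kel:
Rhd: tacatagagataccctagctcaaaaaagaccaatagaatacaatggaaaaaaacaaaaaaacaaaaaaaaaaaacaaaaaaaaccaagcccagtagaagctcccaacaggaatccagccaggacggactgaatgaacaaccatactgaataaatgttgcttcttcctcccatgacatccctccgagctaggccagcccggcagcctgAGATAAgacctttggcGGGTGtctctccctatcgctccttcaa
Rhag: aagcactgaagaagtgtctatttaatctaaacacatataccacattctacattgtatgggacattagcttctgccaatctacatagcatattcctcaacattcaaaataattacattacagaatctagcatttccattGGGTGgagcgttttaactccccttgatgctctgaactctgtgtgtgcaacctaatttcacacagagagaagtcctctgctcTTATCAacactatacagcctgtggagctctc
Kel: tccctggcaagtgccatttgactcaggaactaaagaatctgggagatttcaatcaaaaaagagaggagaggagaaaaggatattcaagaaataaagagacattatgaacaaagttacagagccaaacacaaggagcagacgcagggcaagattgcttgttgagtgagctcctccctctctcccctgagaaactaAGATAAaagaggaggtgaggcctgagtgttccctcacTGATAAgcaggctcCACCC
The GATA motif began 43 bases before the start in Rhd and 31 bases before it in Rhag. Kel was the only one of the 6 genes with more than 1 GATA motif, which 6.40% of all promoters have. A match in these letters does not show that a factor binds there.

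All 8 genes were higher in each step of hemoglobin content when levels were scaled to the typical gene, but by very unequal amounts. Slc4a1 led by far, Epb42 and Rhd followed, and Sptb, Kel, Ank1, Rhag and Epb41 moved by under 1 log2 unit from the low to the high bin. UMIs were summed per library and bin, and the bins were compared with edgeR's quasi-likelihood test with the library as a block, so that the 3 libraries, which differ in genotype, served as repeats of the bin contrast. Between the low and the middle bin 8 of 8 genes were called higher, where 20.6% of the 12501 genes tested were higher and 17.0% lower. Between the middle and the high bin it was 8 of 8, against 12.4% higher and 9.21% lower, and between the low and the high bin 8 of 8, against 26.6% and 28.4%. The median log2 difference of the 8 genes was 0.52, 0.32 and 0.80 in these 3 contrasts, and that of all genes −0.02, −0.03 and −0.06.

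The scale matters for the smaller of these changes. Scaled by total UMIs alone, the median gene shifted by −0.27, −0.24 and −0.51 log2 units against the main scaling, the genes called higher made up 17.8%, 8.59% and 14.1% of all calls in place of 54.8%, 57.4% and 48.4%, and 7, 3 and 7 of the 8 genes were called higher, against 8.74%, 2.95% and 9.44% of all genes. DESeq2 kept 8 of 8 in each contrast, against 17.1%, 12.6% and 22.6% of its genes, with 67.6% of calls higher between the middle and the high bin. The genes that kept their call between the middle and the high bin under total UMIs were Slc4a1, Epb42 and Rhd. CPM values below are shares of all UMIs, so they correspond to this stricter scale.

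**Figure D1:**
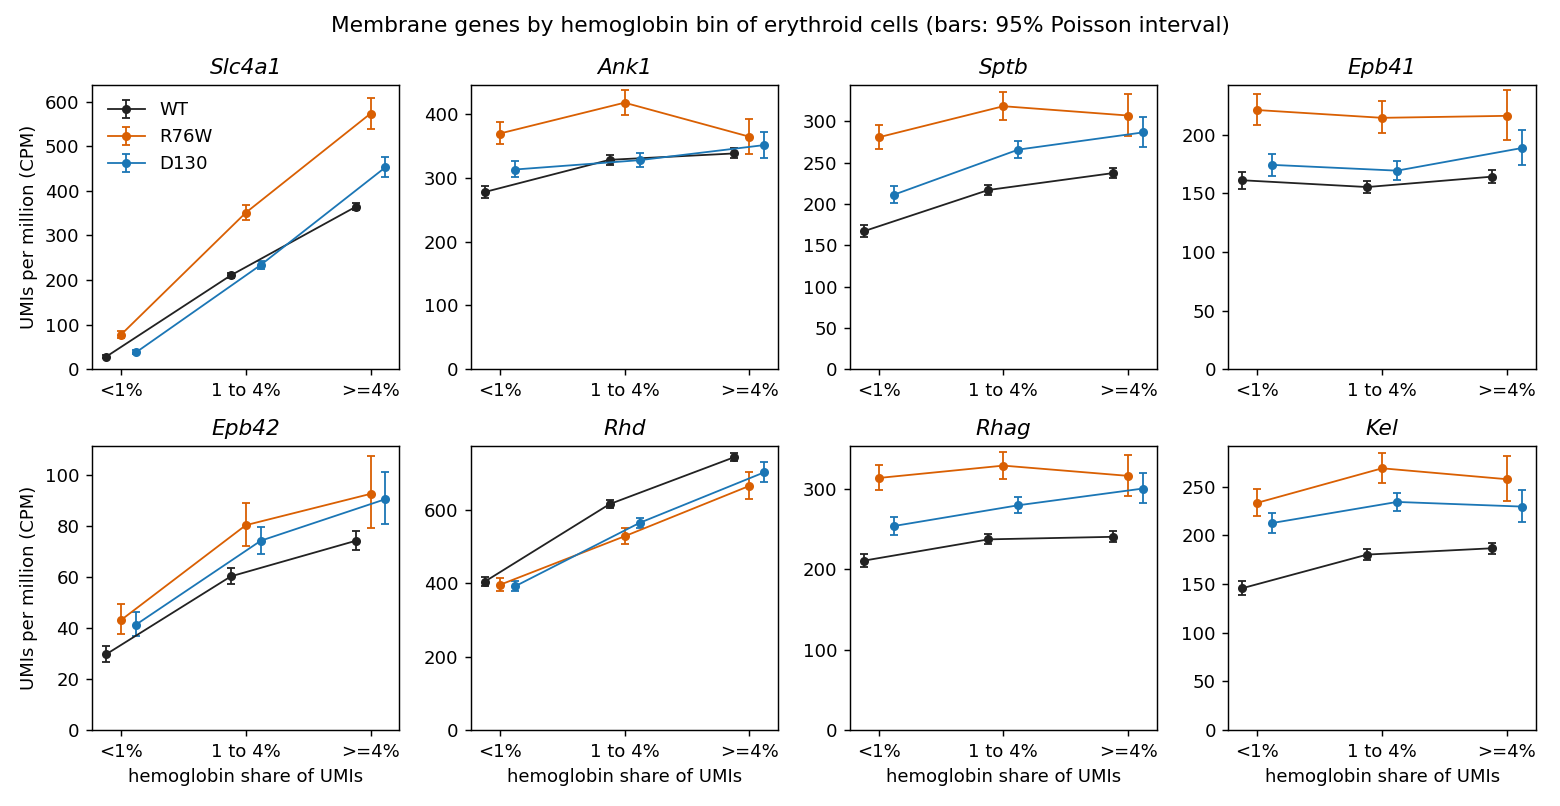
CPM of the 8 genes (y axis) in erythroid cells of 3 hemoglobin bins (x axis) in the WT, R76W and D130 libraries; points are sums over the cells of a bin and bars are 95% Poisson intervals. Slc4a1, Epb42 and Rhd climb from bin to bin in all 3 libraries, while Epb41 stays between 155 and 164 CPM in WT.

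Slc4a1 (ENSMUSG00000006574, chr11:102348824-102366203, minus strand, GRCm38), which encodes band 3, stood at 28.0, 211 and 364 CPM in the low, middle and high bins of WT. In R76W it stood at 77.6, 351 and 573 CPM, and in D130 at 37.8, 234 and 453 CPM. Within each library every bin was above the bin before it with no overlap of the Poisson intervals. The high bin was 13.0 times the low bin in WT (95% interval 11.6 to 14.6, counting error only), 7.39 times in R76W (6.57 to 8.32) and 11.97 times in D130 (10.6 to 13.6). These folds come from UMIs summed over cells, in which deeper cells weigh more. With each cell thinned to 2000 UMIs, levels of the 8 genes in single bins moved by 0.795 to 2.79 times. The folds at equal depth can therefore differ from these. The edgeR log2 difference from low to high was 3.89 ± 0.11 (SE, adjusted p = 1.77e-13), of which 2.83 ± 0.11 fell between the low and the middle bin and 1.06 ± 0.09 between the middle and the high bin.

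The share of cells with a Slc4a1 UMI, which also rises with the mean level alone, was taken at equal depth. With each cell thinned to 2000 UMIs, the share of WT cells with a Slc4a1 UMI was 9.31%, 32.4% and 48.6% over the bins, in R76W 16.1%, 48.6% and 60.5%, and in D130 10.2%, 38.0% and 58.4%. Stromal cells thinned alike had one in 0.505%, 0.349% and 0.0956%. Without thinning the shares in WT were 29.7%, 85.2% and 85.3%, nearly equal in the middle and the high bin. Thinning left out 17, 36 and 80 shallower cells of the WT bins, 3, 2 and 5 of R76W, and 2, 3 and 0 of D130.

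Epb42 (ENSMUSG00000023216, chr2:121017891-121037072, minus strand), protein 4.2, the partner of band 3 on the inner face, stood at 29.8, 60.3 and 74.3 CPM (WT), 43.2, 80.4 and 92.7 CPM (R76W) and 41.4, 74.3 and 90.6 CPM (D130). The high bin was 2.49 times the low bin in WT (2.22 to 2.81), 2.14 times in R76W (1.75 to 2.63) and 2.19 times in D130 (1.87 to 2.56), and the edgeR log2 difference was 1.71 ± 0.07 (adjusted p = 1.39e-11). Although both genes climbed, they did not keep a fixed ratio: Slc4a1 gave 0.939 UMIs per Epb42 UMI in the WT low bin (0.805 to 1.10) and 4.90 in the high bin (4.65 to 5.18). The R76W library went from 1.80 to 6.19 Slc4a1 UMIs per Epb42 UMI, and D130 had 0.914 in the low bin and 3.15 in the middle bin. A ratio between genes of the same cells is free of the scaling above.

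Ank1 (ENSMUSG00000031543, chr8:22974844-23150497, plus strand), the adaptor between band 3 and spectrin, was already at 278 CPM in the WT low bin and reached 328 and 338 CPM in the next bins. In D130 it stood at 313, 328 and 351 CPM, and in R76W at 369, 418 and 364 CPM, where the high bin did not lie above the low bin (ratio 0.987, 0.902 to 1.08). The edgeR log2 difference from low to high was 0.66 ± 0.06 (adjusted p = 1.46e-07). Between the middle and the high bin it was 0.23 ± 0.06 (adjusted p = 0.013), and this call was lost without WT (adjusted p = 0.14) and without D130 (adjusted p = 0.081). Slc4a1 gave 0.101 UMIs per Ank1 UMI in the WT low bin, 0.642 in the middle bin and 1.08 in the high bin. In R76W this ratio was 0.210, 0.841 and 1.57, and in D130 0.121, 0.714 and 1.29, so the ratio rose in each step and in each library.

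**Figure D2:**
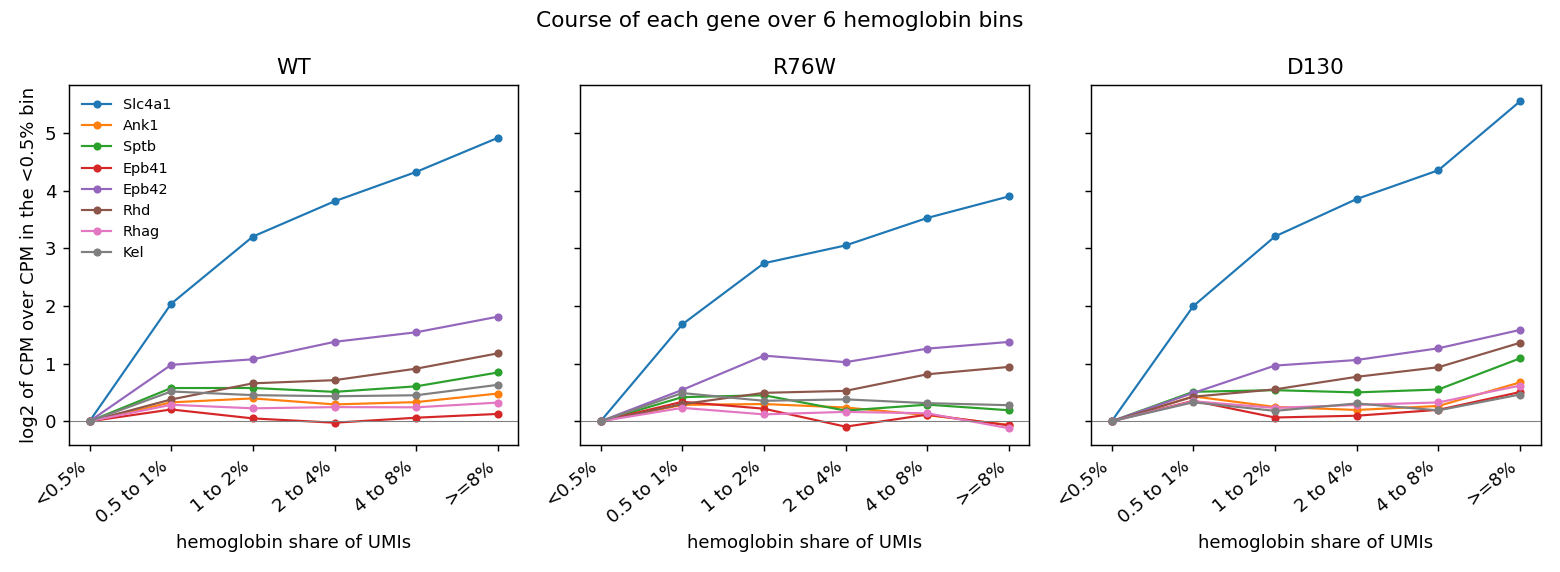
log2 of the CPM in 6 finer hemoglobin bins (x axis) over the CPM in the bin under 0.5% (y axis), 1 line per gene and 1 panel per library. Slc4a1 rises through all 6 bins in each library, from 16.5 to 497 CPM in WT, while Ank1 in WT stays between 322 and 367 CPM after the second bin.

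Finer bins resolved this course. Slc4a1 stood at 16.5 CPM in WT cells with under 0.5% hemoglobin, 67.7 CPM at 0.5 to 1%, 152 at 1 to 2%, 232 at 2 to 4%, 330.1 at 4 to 8% and 497 CPM at 8% and above. In R76W it went from 46.8 to 698 CPM over these bins, and in D130 from 19.3 to 900.5 CPM. The last bin held 24 cells in R76W and 23 cells in D130. Ank1 in WT stood at 263 CPM in the first of these bins and at 329.8 CPM in the second, and the 4 later bins stayed between 322 and 367 CPM. In R76W Ank1 stood at 427 CPM at 1 to 2% and at 332 CPM at 8% and above.

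Sptb (ENSMUSG00000021061, chr12:76580488-76710547, minus strand), beta-spectrin, stood at 167, 217 and 237 CPM (WT), 281, 318 and 307 CPM (R76W) and 211, 266 and 287 CPM (D130). The high bin was above the low bin in WT (ratio 1.42) and D130 (1.36, 1.25 to 1.47), and in R76W the interval reached 1 (1.09, 0.991 to 1.21). The edgeR log2 difference from low to high was 0.88 ± 0.06 (adjusted p = 5.88e-09). Set against Ank1, which binds spectrin to the membrane, there were 0.601, 0.661 and 0.702 Sptb UMIs per Ank1 UMI over the WT bins, 0.760, 0.762 and 0.842 in R76W, and 0.674, 0.811 and 0.816 in D130. The intervals of the low and the high bin overlapped in R76W and did not in WT and D130. Over the same bins the ratio of Slc4a1 to Ank1 rose with no overlap of its intervals.

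Epb41 (ENSMUSG00000028906, chr4:131923413-132075321, minus strand), protein 4.1, was the flattest of the 8 genes. It stood at 161, 155 and 164 CPM (WT), 221, 214 and 216 CPM (R76W) and 174, 169 and 188 CPM (D130), and the interval of the ratio of high to low included 1 in all 3 libraries (1.02, 0.978 and 1.08). Its edgeR log2 difference of 0.54 ± 0.05 (adjusted p = 1.22e-07) is a rise against the typical gene; scaled by total UMIs it was 0.04 (adjusted p = 0.51), and between the low and the middle bin it turned to −0.05 (adjusted p = 0.43). Counts per gene cannot show which Epb41 exons were used, and splicing of this transcript is known to change as red cells mature.

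The Rh complex divided. Rhd (ENSMUSG00000028825, chr4:134864536-134896172, plus strand), the Rh protein, stood at 405, 616 and 743 CPM (WT), 396, 528 and 665 CPM (R76W) and 392, 564 and 702 CPM (D130), each bin above the one before it in each library. Rhag (ENSMUSG00000023926, chr17:40811126-40840754, plus strand), without which the Rh protein does not reach the membrane, stood at 211, 237 and 241 CPM (WT), 314, 329 and 316 CPM (R76W) and 254, 280 and 301 CPM (D130). From low to high Rhd was 1.84 times higher in WT (1.78 to 1.90), 1.68 times in R76W and 1.79 times in D130, while Rhag was 1.14 times higher in WT, 1.01 times in R76W (0.916 to 1.11) and 1.18 times in D130. The edgeR log2 differences were 1.33 ± 0.05 for Rhd (adjusted p = 6.54e-12) and 0.66 ± 0.05 for Rhag (adjusted p = 2.26e-08). Rhd gave 1.92, 2.59 and 3.09 UMIs per Rhag UMI over the WT bins, 1.26, 1.60 and 2.10 in R76W, and 1.54, 2.02 and 2.33 in D130. The intervals of these ratios did not overlap between bins of a library.

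Kel (ENSMUSG00000029866, chr6:41686330-41704339, minus strand) stood at 146, 180 and 187 CPM (WT), 233, 269 and 258 CPM (R76W) and 213, 234 and 229 CPM (D130), highest in the middle bin in both transgenic libraries. The edgeR log2 difference from low to high was 0.72 ± 0.06 (adjusted p = 5.50e-08), and between the middle and the high bin 0.24 ± 0.06 (adjusted p = 0.012), a call lost without WT (adjusted p = 0.15). Xk, the gene of the transporter-like protein that Kell is bonded to, stood at 39.9, 41.1 and 43.9 CPM in WT, and there were 3.65, 4.39 and 4.26 Kel UMIs per Xk UMI over the WT bins. In D130 this ratio was 4.83, 4.96 and 4.21, with overlapping intervals throughout.

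**Figure D3:**
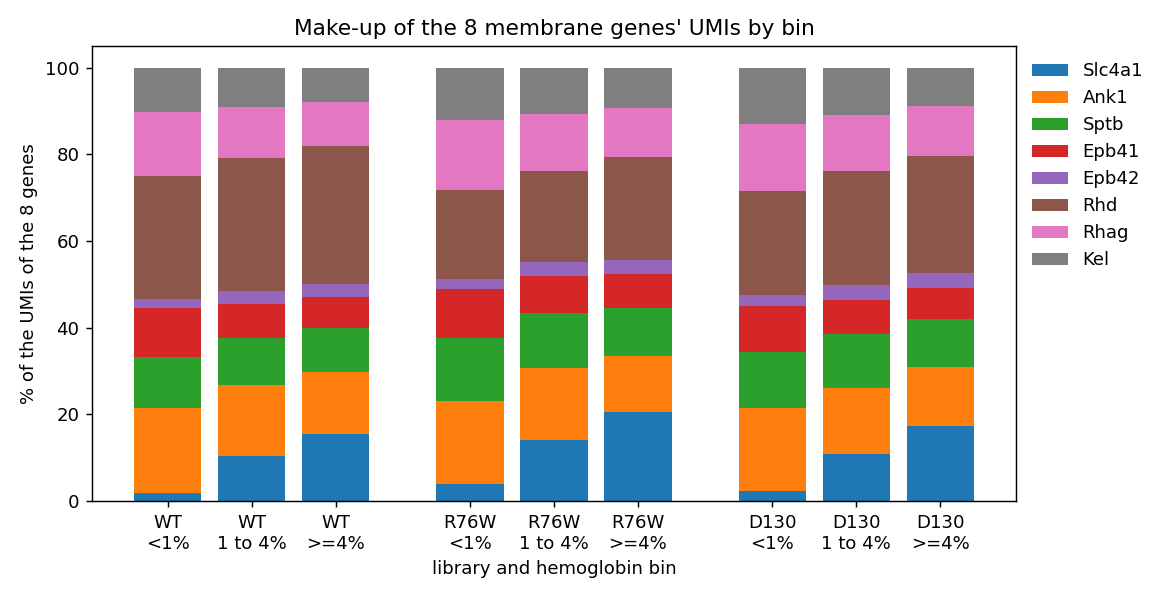
Share of each gene (y axis, percent) in the UMIs of the 8 genes together, for each hemoglobin bin of each library (x axis). The Slc4a1 share grows from 1.96% to 15.5% in WT, and the Ank1 and Epb41 shares shrink.

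As a whole the set gave 1425, 2004 and 2349 CPM over the WT bins, 1935, 2508 and 2793 CPM in R76W, and 1636, 2149 and 2602 CPM in D130. Its make-up changed with it. Slc4a1 held 1.96%, 10.5% and 15.5% of these UMIs in WT, 4.01%, 14.0% and 20.5% in R76W, and 2.31%, 10.9% and 17.4% in D130. Ank1 went the other way, from 19.5% to 14.4% (WT), 19.1% to 13.0% (R76W) and 19.1% to 13.5% (D130), and Epb41 from 11.3% to 6.99%, 11.4% to 7.73% and 10.6% to 7.24%. These shares compare 3′ end counts, whose yield can differ between genes, so only their movement is read.

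Of 20 other genes of the red cell membrane, chosen with earlier results of these data known, 18 had enough UMIs to be tested between bins. From the low to the high bin 17 were called higher and 1 lower, against 26.6% higher and 28.4% lower among all genes, with a median log2 difference of 0.86. Tmod1, the cap of the short actin filaments, had 2.25 ± 0.12 (adjusted p = 1.30e-10), going from 9.10 to 34.6 CPM in WT. Dmtn (dematin, an actin bundler) had 1.71 ± 0.08, and Icam4, a blood group adhesion molecule, 1.68 ± 0.06. The gene called lower was Piezo1, the stretch-activated cation channel, which stood at 65.7, 38.7 and 28.7 CPM (WT), 80.7, 58.7 and 28.4 CPM (R76W) and 63.4, 46.6 and 30.3 CPM (D130) (log2 difference −0.67 ± 0.10, adjusted p = 1.59e-05). Under scaling by total UMIs 11 of the 18 were higher and 3 lower, against 9.44% and 57.4% of all genes, since Add2 (−0.20) and Slc29a1 (−0.15) changed sign and joined Piezo1, and Add1 and Slc14a1 changed sign without a call.

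Over the 18 sums of 6 finer bins in 3 libraries, the genes closest in course to each of the 8 were found by Pearson correlation of log2(CPM + 1), centred within library, among 9302 genes. The points share libraries and a common hemoglobin axis, so the values only describe likeness. Slc4a1 was closest to Acp5 (r = 0.996), Cd24a and Tac2. Epb42 was closest to Tac2 (0.988) and then to Slc4a1 itself (0.985), and Rhd to Ctse (0.994). Lbr, the lamin B receptor (0.965), and Rb1 (0.964) were among the 3 genes closest to Sptb. Ank1 and Rhag shared Picalm, a clathrin adaptor, and Ncapg2 among their 3 closest genes, at 0.961 and 0.937 for Ank1 and 0.945 and 0.953 for Rhag, and Rhag was the third closest gene to Ank1 (0.934). Epb41 had its closest gene at 0.900 (Nfyb) and Kel at 0.907 (Sec14l2). Within the set, Slc4a1, Epb42 and Rhd correlated with each other at 0.959 to 0.985, while Slc4a1 and Epb41 had 0.233.

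Stromal and myeloid cells of the same libraries held little of 7 of the 8 genes. Compared with edgeR in the same way, 8 of 8 genes were called higher in erythroid than in stromal cells, where 36.5% of 15826 genes were higher and 45.5% lower, and 8 of 8 higher than in myeloid cells, against 31.3% higher and 27.1% lower. The median log2 difference of the 8 genes was 7.93 against stromal cells, with −0.27 for all genes, and 7.95 against myeloid cells, with 0.29 for all genes. Under total UMIs the median gene moved by −0.64 against stromal cells and 31.7% of calls were higher in place of 44.5%, and DESeq2 moved the median by −0.20 and −0.29. All 8 genes kept both calls under either scaling, where 26.0% and 31.4% of all genes were higher with total UMIs and 30.7% and 28.2% with DESeq2.

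**Figure D4:**
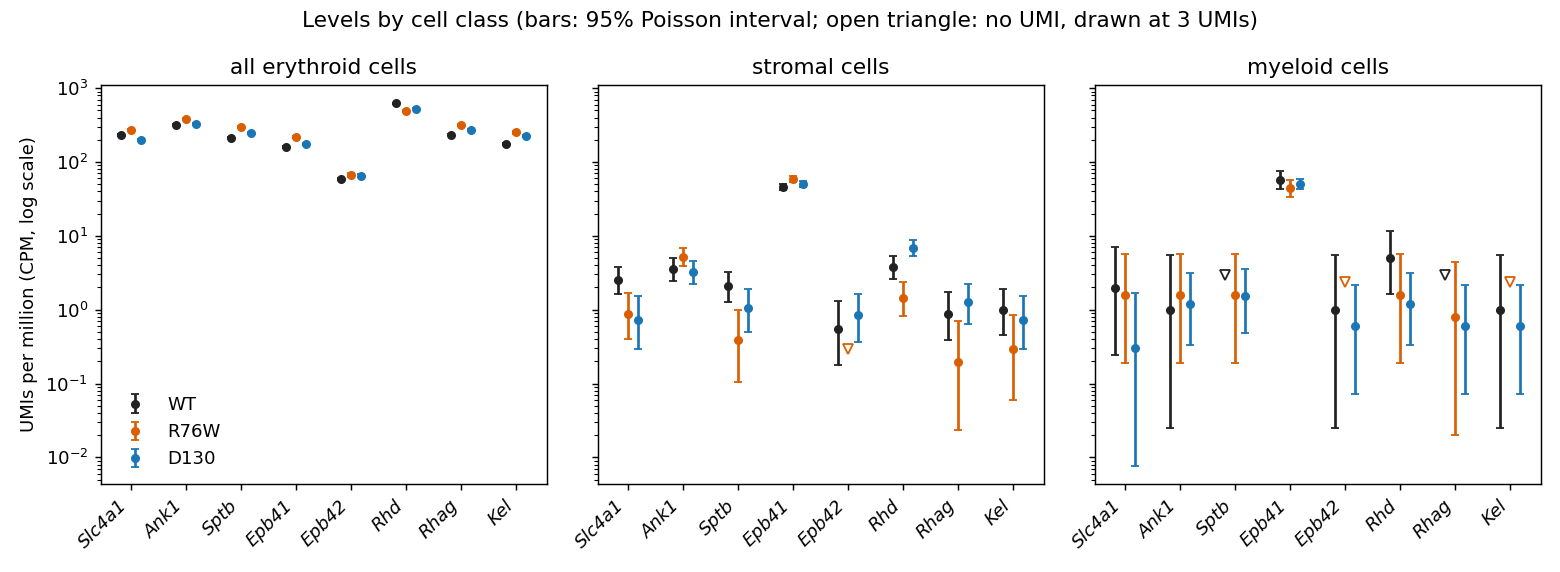
CPM of the 8 genes (y axis, log scale) in all erythroid, stromal and myeloid cells of each library; bars are 95% Poisson intervals and open triangles mark sums without a UMI, drawn at 3 UMIs. Epb41 alone stays above 40 CPM in stromal and myeloid cells.

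Epb41 was the exception. It stood at 159.9, 217 and 174 CPM in erythroid cells of WT, R76W and D130, at 45.6, 58.8 and 50.4 CPM in stromal cells, and at 57.5, 44.0 and 49.9 CPM in myeloid cells. The log2 difference was 2.46 ± 0.13 against stromal cells (adjusted p = 6.14e-12) and 1.85 ± 0.15 against myeloid cells (adjusted p = 5.51e-09), where the other 7 genes lay between 6.87 and 9.10 in both contrasts. Protein 4.1 is known to be made in many tissues besides blood.

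The remaining genes stood at up to 6.81 CPM in stromal cells. Rhag had 8, 2 and 12 UMIs among the stromal cells of WT, R76W and D130, against 12985, 3607 and 6035 in erythroid cells, and its log2 difference was the highest of the 8, at 9.10 ± 0.25 (adjusted p = 1.34e-15). Kel had 9, 3 and 7 stromal UMIs. Epb42 had no UMI in R76W stromal cells, where a floor of 3 UMIs makes erythroid cells at least 227-fold higher. In myeloid cells, whose sums are smaller, Sptb and Rhag had no UMI in WT (at least 72.0-fold and 78.3-fold higher in erythroid cells) and Epb42 and Kel none in R76W (at least 28.1-fold and 107-fold).

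**Figure D5:**
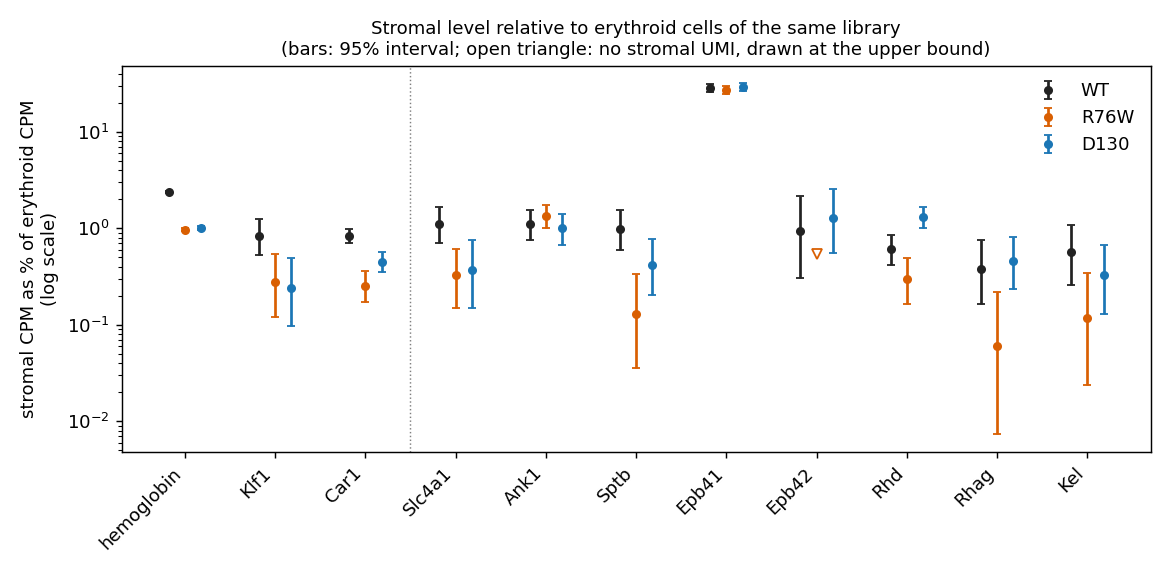
Stromal CPM as a percent of erythroid CPM of the same library (y axis, log scale) for summed hemoglobin, the erythroid genes Klf1 and Car1, and the 8 membrane genes; bars are 95% intervals and the open triangle is an upper bound without a UMI. Epb41 lies at 27.0% to 29.0%, the other 7 genes at or below 1.33%.

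Free RNA from erythroid cells can reach other droplets, so stromal levels were expressed as a percent of the erythroid level of the same library. Over WT, R76W and D130 hemoglobin gave 2.36%, 0.969% and 1.01%, and Car1, one of the genes that define the classes, 0.837%, 0.251% and 0.448%. Epb41 gave 28.5%, 27.0% and 29.0%, far above both. The other 7 genes lay at or below the hemoglobin value in WT. In R76W Ank1 gave 1.33% (0.994 to 1.74), from 53 UMIs in 39 of 1190 cells, while Sptb gave 0.130% (0.0353 to 0.332) and the interval of hemoglobin (0.928 to 1.01) overlapped that of Ank1. In D130 stromal cells Rhd gave 1.30% (1.00 to 1.65), from 65 UMIs in 29 of 1067 cells, against 0.459% (0.237 to 0.802) for Rhag. The interval of hemoglobin in D130 (0.966 to 1.05) overlapped that of Rhd, and Epb42 gave 1.28% (0.554 to 2.54) from 8 UMIs. In WT Ank1 gave 1.10% and Rhd 0.607%.

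Relatives of the 8 genes that serve other tissues were lower in erythroid than in stromal cells. Of 15 such genes, chosen with earlier results of these data known, 13 were tested. All 13 were called lower in erythroid cells, against 45.5% of all genes, also with DESeq2 and with total UMIs. Ank3 stood at 246, 669.6 and 167 CPM in stromal cells of WT, R76W and D130 and at 0.557, 0.799 and 0.545 CPM in erythroid cells. Sptbn1, the beta-spectrin of non-erythroid cells, stood at 369, 406 and 349 CPM in stromal cells, 85.3, 73.1 and 77.4 CPM in myeloid cells, and 2.03, 1.15 and 1.77 CPM in erythroid cells. Sptan1 and Epb41l2 followed the same order. Against myeloid cells 5 of the 13 were lower (Ece1, Epb41l2, Slc4a2, Sptan1 and Sptbn1) and 2 higher (Ank2 and Tgm2) in erythroid cells, and 6 had no call, where 27.1% of all genes were lower and 31.3% higher. Rhbg had no UMI in any of these classes.

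Between genotypes there was 1 library each, so no test was possible and a difference cannot be told apart from one between libraries. At matched bins, R76W was at least 1.5 times WT in 3 of the 8 genes in the low bin (8.37% of all genes compared), 1 in the middle bin (11.3%) and 1 in the high bin (7.55%), with ratios of CPM + 1. D130 was at least 1.5 times WT in 0 of the 8 genes in each bin (2.69%, 2.79% and 4.74% of all genes), and 0 of the 8 were 1.5 times lower in either library. Of all genes 5.49%, 4.61% and 7.12% were that much lower in R76W, and 4.54%, 4.74% and 5.0% in D130. The median ratio of the 8 genes in R76W over WT was 1.46, 1.38 and 1.30 over the bins, against 1.11, 1.14 and 1.05 for all genes. In D130 it was 1.23, 1.14 and 1.21, against 1.02, 1.03 and 1.03.

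Slc4a1 gave the highest of these ratios in R76W, at 2.78 (2.39 to 3.23) in the low bin, 1.67 (1.57 to 1.77) in the middle bin and 1.57 (1.48 to 1.68) in the high bin. Hemoglobin content within the bins was not matched. In the low bin the median cell had 0.215% of its UMIs from the hemoglobin genes in WT, against 0.337% (R76W) and 0.329% (D130). The order turned in the other bins. Medians over WT, R76W and D130 were 2.70%, 2.07% and 2.20% in the middle bin, and 6.04%, 5.88% and 5.53% in the high bin. The part of the Slc4a1 ratios that comes with these differences in hemoglobin content was not tested. In the bin under 0.5% Slc4a1 stood at 46.8 CPM in R76W, 16.5 in WT and 19.3 in D130, and median hemoglobin content differed there too, at 0.171%, 0.119% and 0.152% in that order. Sptb and Kel were the other members past 1.5 in the R76W low bin, at 1.68 and 1.60. Rhd did not follow, at 0.978, 0.858 and 0.895 times WT in R76W and 0.967, 0.917 and 0.945 times WT in D130. The cell cycle genes Mki67, Top2a and Ccnb1 together stood at 997, 1185 and 1219 CPM over the WT bins. They stood at 1483, 1824 and 1789 CPM over those of R76W and at 1266, 1513 and 1540 CPM over those of D130. Their part in the ratios above was not tested.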

How the data were processed

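The authors deposited raw UMI counts per gene and barcode for each library, written by Cell Ranger 7.0.1 per the file headers; build mm10 and Seurat are also listed in the submitters' processing notes. Counts were whole numbers, with at least 500 UMIs per barcode. Cells were filtered, classed and binned as described above in Python 3.11.15 (numpy 2.4.6, scipy 1.17.1, pandas 2.3.3), and the 8 genes and all lists were chosen with earlier results of these data known. All 8 genes, the 20 other membrane genes, 15 relatives and the 3 genes closest to each member (with at least 200 UMIs) were named by rule, except for 2 of them, which are not reported here. Doublets were kept, and Scrublet removal (scanpy 1.11.5) was an alternative. Counts were summed per library and bin or class. Genes with at least 30 UMIs were tested with edgeR 4.0.16 (TMM, Benjamini-Hochberg threshold 0.05, R 4.3.3), with DESeq2 1.42.0 as an alternative. The fit was also run on simulated counts, in which most genes did not shift between bins or classes. That run cannot decide which scaling is right. P-values set the size of a difference between bins or classes against its spread over 3 libraries of different genotypes. That spread may be technical. Levels carry Poisson, shares Clopper-Pearson and ratios conditional binomial intervals at 95%, which cover counting error only. Gene positions are from GENCODE (GRCm38), 1-based. Each library's sums held between 1007940 and 55691438 UMIs per class.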

Additional observations from a re-analysis of the deposited data

Results flagged for a closer look

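Ank1 moved in opposite directions from the middle to the high hemoglobin bin in the transgenic libraries, as CPM. The ratio was 1.07 in D130 (1.004 to 1.14) and 0.872 in R76W (0.798 to 0.952), and the difference was not tested. The D130 interval, which covers counting error only, came close to 1. Barcodes left out by the limits on genes, UMIs and mitochondrial share also carried the 8 genes, above the level of stromal cells. Summed over the 8 genes they held 905 CPM in WT (2981 barcodes), 835 CPM in R76W (1527 barcodes) and 703 CPM in D130 (2070 barcodes), where stromal cells held 60.0, 67.1 and 65.0 CPM.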

How the results depend on the processing

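Over all alternatives 149 of 154 counts of called genes stayed within 1.5 times the reported count, and 582 of 616 single-gene results kept their direction and side of the threshold. The counts include those of genes called lower, which were 0 throughout, and those of the class contrasts, where differences were large. All 5 counts that moved further were of genes called higher between adjacent bins. Without the library block, 5 of 8 genes were called higher between the low and the middle bin and 0 between the middle and the high bin (4 at an unadjusted p under 0.05), where 8.17% and 0.784% of all genes were called higher in place of 20.6% and 12.4%. With cells thinned to 2000 UMIs these counts were 5 and 3, against 10.2% and 2.90% of all genes, and with total UMIs alone the second was 3, against 2.95%. Epb41 between the low and the middle bin turned to −0.047 under total UMIs and −0.12 in thinned cells, and between the middle and the high bin Ank1 turned to −0.0043 and Kel to −0.0017 under total UMIs; the cause was not tested. Leaving out 1 library gave 7 to 8 genes for the first contrast (7 without WT, where Epb41 was lost), 6 to 8 for the second (6 without WT, 7 without D130), and 8 for low against high and for both class contrasts, with 0 genes lower throughout. The labels give no replicate numbers; bins and classes were paired by library through the block. Levels moved by 0.795 to 2.79 times in thinned cells, which weigh equally whatever their depth, and by 0.934 to 1.07 times under the other alternatives for levels.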

Other observations

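Mixed cells, which carried the erythroid genes together with Cxcl12 or Lyz2, held the 8 genes at 1715 CPM summed in WT (235 cells), 1581 CPM in R76W (18 cells) and 1127 CPM in D130 (50 cells), where erythroid cells held 2017, 2307 and 2038 CPM. Removal of doublets by Scrublet score (153 WT, 15 R76W and 32 D130 cells) took 118, 11 and 18 of these cells. The Scrublet threshold itself marked 0 cells in WT, so the top-scored cells were taken there. Cells in no class held 68.4, 51.6 and 37.5 CPM over WT, R76W and D130, and stromal cells 60.0, 67.1 and 65.0 CPM, with intervals that overlapped in WT only. Bcam and Slc2a1, the Lutheran glycoprotein and the glucose transporter of human red cells, were lower in erythroid than in stromal cells of these mice (edgeR log2 difference −6.05 ± 0.58, adjusted p = 7.96e-08, and −5.79 ± 0.33, adjusted p = 1.51e-11). Slc2a1 had 5, 2 and 3 UMIs in all erythroid cells of WT, R76W and D130. Slc29a1, the nucleoside transporter, was also lower (−0.75 ± 0.12, adjusted p = 1.57e-05), at 114, 136 and 113 CPM against 318, 289 and 345 CPM in stromal cells.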
